A study of Gallus gallus with 8 samples.

Results

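The genes described here encode the cytochrome P450 monooxygenases (CYP), the aldehyde and alcohol dehydrogenases (ALDH and ADH), the glutathione S-transferases (GST, with the membrane-bound MGST), the UDP-glycosyltransferases (UGT) and the epoxide hydrolases (EPHX) of the chicken yolk sac endoderm. They were taken by gene symbol alone, with the cholesterol synthesis enzyme CYP51A1 left out. The rule found 79 of the 13009 genes that have a probe set with a single symbol on the array: 42 CYP, 15 ALDH, 2 ADH, 9 GST, 3 MGST, 4 UGT and 4 EPHX genes. Each gene was read from its probe set with the highest mean signal over the 8 arrays, and 62 of the 79 passed a filter that asked for a mean deposited signal above the 40th percentile (9.96). A gene bright on some days only can pass through those days, so counts over the 62 are given as descriptions. ALDH1L2, CYP26C1 and UGT8L would not have passed without the arrays of their brightest day, day 1, nor CYP11A1 without those of day 3. Leaving out other days was not tried.

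The study followed normal development and had no treatment or mutant. Yolk sac endoderm, the extraembryonic epithelium that faces the yolk, was sampled on embryonic days 1, 2, 3 and 4 from eggs kept at 38 °C, with 2 independent RNA samples per day and 1 Affymetrix Chicken Genome Array per sample. Each sample was a pool of tissue taken every 4 h over the day, freed of mesoderm after 5 min in dispase, and the p-values therefore speak of the spread among pools, not among embryos. The source label of the day 1 samples names the yolk sac without the word endoderm, while their tissue label names the endoderm as on the other days. Strain and sex were not given in the sources used here.

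Most P450s oxidize small lipophilic molecules with electrons from a reductase, and a part of them works on the body's own sterols, vitamin D, retinoic acid and fatty acids. Epoxide hydrolases and aldehyde dehydrogenases take up reactive products of such oxidations, and GST and UGT enzymes couple the products to glutathione or to a sugar. In the adult these families are a hallmark of the liver. The yolk sac endoderm performs many liver functions before the liver forms, and the yolk is rich in lipids, carotenoids and fat-soluble vitamins.

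The deposited signals of the 8 arrays were not on a common level, with trimmed means of 77.4 to 171 arbitrary units, and are given here after quantile normalization. Beta-actin had a 3' to 5' signal ratio, a gauge of RNA integrity, of 1.50 to 2.91 on day 1 and 3.22 to 4.30 on day 4. The same ratio for GAPDH did not rise in this way, at 1.05 to 1.40 on day 1 and 1.11 to 1.18 on day 4. The endoderm markers TTR, APOA1 and APOB were bright on all 8 arrays, from 6108 to 10254, while GATA4 stayed at 17.3 to 26.5. The summed signal of 11 endoderm markers was 27370 to 31260 on day 1, 42270 to 46020 a day later, 51720 to 52450 by day 3 and 50280 to 58860 by day 4. Of the 11, 7 rose between day 1 and day 4. The 8 erythroid markers summed to 1658 to 4451 on day 1, 40100 to 51330 a day later and 17250 to 26460 by day 4. Of the 7 tested, 6 rose. The 10 endothelial markers summed to 3499 and 2162 on day 1 and to 3577 and 211 a day later. Their sums were 743 and 125 by day 3 and 313 and 148 by day 4, with 4 markers lower and 1 higher on day 4 than on day 1. The 7 ectoderm and neural markers summed to 588 to 1006 on day 1 and to 96.3 to 214 on day 4, with 3 of 6 tested lower. The 16 mesoderm markers summed to 3349 and 4458 on day 1, 13397 and 633 a day later, 5115 and 599.7 by day 3 and 622 and 726 by day 4. The first array of day 2 and the first of day 3 thus stood above their partners, and 4 of the 15 tested fell. No marker was at 0. The part of these shifts in the enzyme results was not tested, and in bulk RNA more cells of a type and more RNA per cell cannot be told apart.

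Between day 1 and day 4 the enzyme genes moved mostly upward. Of the 62 tested, 29 were higher on day 4 at an adjusted p under 0.05 and 6 were lower, beside 13.0% higher and 16.4% lower among the 10553 genes tested. The test was that of limma, with Benjamini-Hochberg adjustment over all 23063 probe sets tested. The rises were of 1.54-fold to 33.9-fold on the scale of signal + 16 that is used for all changes, which understates changes of dim genes. The falls were those of ALDH1A2, GSTO2, ALDH1L2, GSTA4, CYP26B1 and CYP39A1. On the deposited scale, on which the median of all probe sets lay 0.55 log2 units lower on day 4, 18 of the 29 and all 6 falls were still called, and ALDH4A1, CYP1A2 and CYP2R1 joined the falls. The background there was 4.61% higher and 33.8% lower. The median log2 change of the 62 after quantile normalization was 0.80, against -0.06 for all genes. On the deposited scale the median of the 62 was 0.29. By family, the tested genes that rose and fell were 8 and 2 of 27 CYP, 6 and 2 of 14 ALDH, 1 and 0 of 2 ADH, 6 and 2 of 9 GST, 2 and 0 of 3 MGST, 3 and 0 of 4 UGT, and 3 and 0 of 3 EPHX genes. In 29 of 29 rises both arrays of day 4 lay above both arrays of day 1. The genes were picked by this same comparison, so this is a description.

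**Figure D1:**
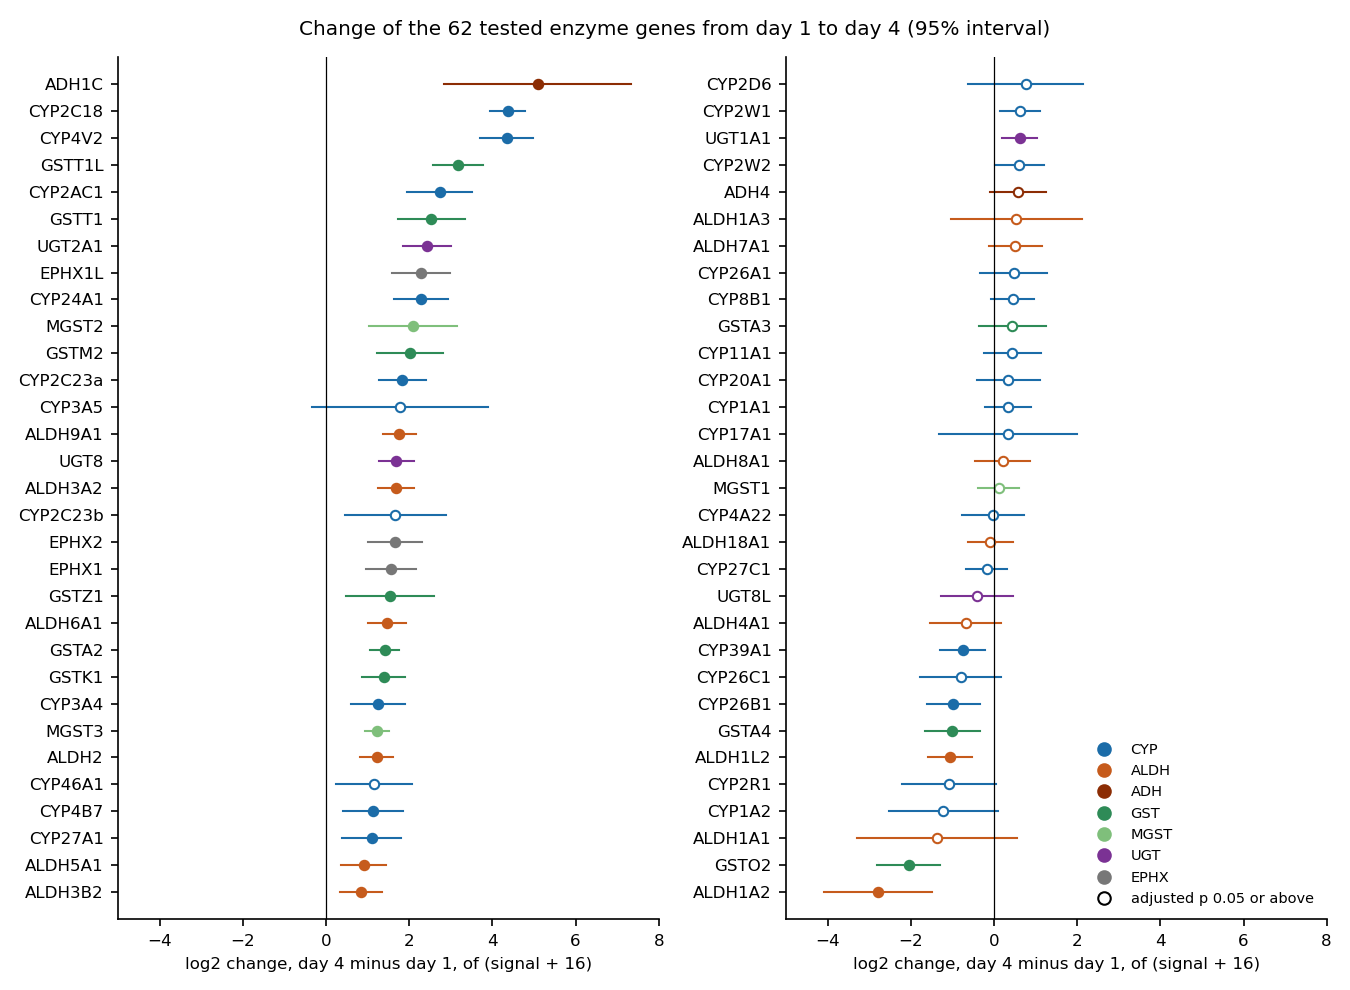
Change of the 62 tested enzyme genes from day 1 to day 4, as the log2 difference of signal + 16 (horizontal axis) with its 95% interval, 1 line per gene and 1 colour per family; filled points have an adjusted p under 0.05. The 29 filled points to the right reach from UGT1A1 at 0.62 to ADH1C at 5.08, and the 6 to the left from CYP39A1 at -0.76 to ALDH1A2 at -2.79.

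Among the P450s of the families best known for drug and steroid metabolism, CYP2C18 moved furthest. This gene, which RefSeq also lists as CYP2C45, had signals of 168 and 128 on day 1, 1596 and 1904 a day later, 2918 and 3258 by day 3 and 3265 and 3421 by day 4, each pair in the order of the replicates. From day to day the arrays formed steps without overlap from day 1 to day 3, and day 4 lay just above day 3. Its rise to day 4 was 20.7-fold (log2 4.37 ± 0.19, adjusted p = 1.8e-05; changes are given with the standard error of the fit), and another probe set of the gene gave a log2 change of 4.42 (adjusted p = 2.8e-05). CYP2AC1 read 96.5 and 140.2 on day 1, 688 and 696 a day later, 603 and 989 by day 3 and 1184 and 628 by day 4, low on both arrays of day 1 and far higher on every later array. It rose 6.63-fold by day 4 (log2 2.73 ± 0.35, adjusted p = 0.0017).

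CYP2C23a and CYP2C23b, listed also as CYP2H1 and CYP2H2, are the phenobarbital-inducible P450s of chick embryo liver and lie next to each other in the genome. CYP2C23a had signals of 70.0 and 68.0 on day 1, 129 and 154 a day later, 359 and 475 by day 3 and 335 and 246 by day 4. Its days 3 and 4 stood clear of day 1, with day 2 between, and it rose by day 4 (log2 1.83 ± 0.25, adjusted p = 0.0024). The other probe set of CYP2C23a did not show this rise. It was too dim to be tested, at 0.453 to 6.93 over the arrays, with its highest daily mean on day 1. CYP2C23b had signals of 139 and 52.6 on day 1, 374 and 144 a day later, 542 and 1199 by day 3 and 321 and 301 by day 4, with its arrays far apart on days 1 to 3. Its change did not pass the threshold (log2 1.66 ± 0.54, adjusted p = 0.055), although another probe set of it did (log2 change 1.42, adjusted p = 0.0081). The sequences of the pair are close, and the array may not separate them.

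CYP3A4, listed also as CYP3A80, and its genomic neighbour CYP3A5, listed also as CYP3A37, belong to the family that carries much of adult drug oxidation. CYP3A4 read 106 and 112 on day 1, 216 and 330.1 a day later, 183 and 285 by day 3 and 267 and 293 by day 4. Both arrays of each later day exceeded day 1, and it rose 2.36-fold (log2 1.24 ± 0.29, adjusted p = 0.017). The call was lost on the deposited scale and without any single array of day 1 or day 4, with adjusted p up to 0.43 over the 20 alternatives. CYP3A5 read 252 and 198 on day 1, 618 and 777 a day later, 1056 and 1392 by day 3 and 2995 and 207 by day 4. It was high on the first array of day 4 and back at the day 1 level on the second, so that day 4 spanned nearly the whole range of the gene, and its change was not called (log2 1.78 ± 0.93, adjusted p = 0.2).

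The remaining members of these groups did not pass between day 4 and day 1. CYP1A2, listed also as CYP1A5 and a target of the dioxin receptor in birds and mammals, had signals of 166 and 266 on day 1, 179.9 and 276 a day later, 187 and 401 by day 3 and 166 and 36.1 by day 4. The second array of day 4 lay apart from the other 7, and the change had an interval of -2.53 to 0.10 (log2 -1.22 ± 0.58, adjusted p = 0.16; on the deposited scale -2.03, adjusted p = 0.017). CYP1A1, its neighbour and fellow target, had 19.7 and 22.3 on day 1 and 35.3 and 26.7 on day 4 (adjusted p = 0.34). CYP2D6 read 47.8 and 69.7 on day 1, a pair enclosed by the 249 and 43.7 of day 4 (adjusted p = 0.4). The adjacent genes CYP2W1 and CYP2W2 had log2 changes of 0.63 and 0.61 (adjusted p = 0.064 and 0.12). CYP20A1, a P450 of no settled function, had a log2 change of 0.35 (adjusted p = 0.49).

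The CYP4 enzymes hydroxylate fatty acids, and 2 of the 3 tested rose. CYP4V2, a fatty acid hydroxylase in humans, had signals of 19.8 and 11.5 on day 1, 147 and 216 a day later, 403 and 405 by day 3 and 733 and 524 by day 4. Its arrays climbed without overlap on every day, from dim on day 1 to the top on day 4. The rise was 20.3-fold (log2 4.34 ± 0.28, adjusted p = 8.3e-05), and another, dimmer probe set gave 1.40 (adjusted p = 0.006). The mean deposited signal of that probe set passed the filter only with its day 4 arrays, at 30.0 and 19.2. Its rise is given as a description. CYP4B7 had 23.0 and 15.9 on day 1, 78.2 and 136 a day later, 105 and 65.2 by day 3 and 56.4 and 65.3 by day 4, with day 1 below all other arrays and no steady order among days 2 to 4. It was higher on day 4 (log2 1.12 ± 0.31, adjusted p = 0.035), a call lost on the deposited scale and without any single array of day 1 or day 4, with adjusted p up to 0.23. Its neighbour CYP4A22, listed also as CYP4B1, read 120.3 and 108 on day 1, 222 and 251 a day later, 365 and 339 by day 3 and 169 and 73.2 by day 4, highest on day 3 and with day 4 arrays on either side of day 1 (log2 -0.02 ± 0.33, adjusted p = 0.97).

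In the vitamin D group, CYP24A1, the enzyme that starts the breakdown of active vitamin D, had signals of 111 and 93.0 on day 1, 838 and 1189.9 a day later, 1067 and 1409 by day 3 and 698 and 439 by day 4. Days 2 and 3 were high on all their arrays, day 1 was low, and day 4 lay between them without overlap. CYP24A1 rose 8.64-fold by day 2 (log2 3.11 ± 0.29, adjusted p = 0.001) and was still 4.86-fold above day 1 on day 4 (log2 2.28 ± 0.29, adjusted p = 0.0017). The step down from day 3 to day 4 did not pass (log2 -1.12 ± 0.29, adjusted p = 0.54). CYP2R1, which makes the circulating form of vitamin D, read 19.8 and 46.5 on day 1, 54.2 and 6.94 a day later, 16.2 and 4.85 by day 3 and 6.07 and 6.59 by day 4, with 1 array of each of days 1 and 2 above 40 and the day 4 pair close to the dim end (log2 -1.08 ± 0.50, adjusted p = 0.15; on the deposited scale -1.54, adjusted p = 0.048).

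Of the sterol and bile acid P450s, CYP27A1, a mitochondrial sterol hydroxylase, had signals of 28.8 and 44.0 on day 1, 58.5 and 96.4 a day later, 111 and 158 by day 3 and 109.9 and 81.7 by day 4. Day 1 lay below every later array, and the gene rose by day 4 (log2 1.10 ± 0.31, adjusted p = 0.035), though not on the deposited scale or without any single array of day 1 or day 4 (adjusted p up to 0.48). CYP39A1, an oxysterol hydroxylase, read 52.6 and 54.4 on day 1, 36.3 and 41.7 a day later, 31.1 and 30.4 by day 3 and 19.8 and 31.2 by day 4 and declined without overlap between day 1 and any later day. Its fall was the weakest of those called (log2 -0.76 ± 0.23, adjusted p = 0.049) and held under 8 of 20 alternatives; among the others was leaving out any single array but the second of day 4 (adjusted p up to 0.23). CYP46A1, the cholesterol hydroxylase of mammalian brain, had 72.1 and 63.7 on day 1, 89.0 and 212 a day later, 285 and 434 by day 3 and 219.6 and 130.2 by day 4, and its difference between day 4 and day 1 did not pass (log2 1.15 ± 0.40, adjusted p = 0.073). CYP8B1, which shapes the bile acid pool in mammals, ranged from 7.74 to 32.5 over the arrays (adjusted p = 0.19). CYP7A1, the rate-limiting enzyme of bile acid synthesis in mammals, and CYP7B1 did not pass the filter, with highest signals of 9.33 and 4.39.

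No steroid hormone enzyme was called. CYP11A1, which cuts the cholesterol side chain, had signals of 1.19 to 19.7 over the 8 arrays (adjusted p = 0.33). CYP17A1 read 30.8 and 31.4 on day 1, 32.6 and 55.9 a day later, 52.5 and 112 by day 3 and 135 and 7.34 by day 4, with both its highest and its lowest array on day 4 (adjusted p = 0.77). Aromatase, CYP19A1, and the steroid hydroxylase CYP21A1 did not pass the filter and reached 7.40 and 15.9.

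All 3 epoxide hydrolases tested rose. The daily mean was highest on day 3 for EPHX1 and on day 4 for EPHX1L and EPHX2. Neither day 3 against day 2 nor day 4 against day 3 was called for any of them, and day 4 was not tested against day 2. EPHX1, the microsomal enzyme, had signals of 72.7 and 74.8 on day 1, 297 and 455 a day later, 527 and 549.5 by day 3 and 288 and 214 by day 4. Its arrays of days 2 and 3 were the high ones and those of day 4 lay lower but above day 1. It rose 4.28-fold by day 2 (log2 2.10 ± 0.26, adjusted p = 0.0035) and 2.94-fold by day 4 (log2 1.56 ± 0.26, adjusted p = 0.0053), the latter lost on the deposited scale (adjusted p = 0.12). EPHX1L, a gene annotated as like EPHX1, read 119 and 104 on day 1, 253 and 471 a day later, 561 and 606 by day 3 and 726 and 502 by day 4, with day 1 below all later arrays and days 3 and 4 overlapping. It rose 4.86-fold (log2 2.28 ± 0.31, adjusted p = 0.0022). EPHX2, the soluble enzyme that opens fatty acid epoxides, read 252 and 191 on day 1, 368 and 623 a day later, 649 and 506 by day 3 and 684 and 765 by day 4, with day 1 again below all the rest and day 4 on top. Its rise (log2 1.65 ± 0.28, adjusted p = 0.0057) had both of its other tested probe sets on the same side (log2 1.02 and 1.99, adjusted p = 0.047 and 0.0018), but it was not called on the deposited scale or without the second array of day 1 (adjusted p up to 0.068).

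**Figure D2:**
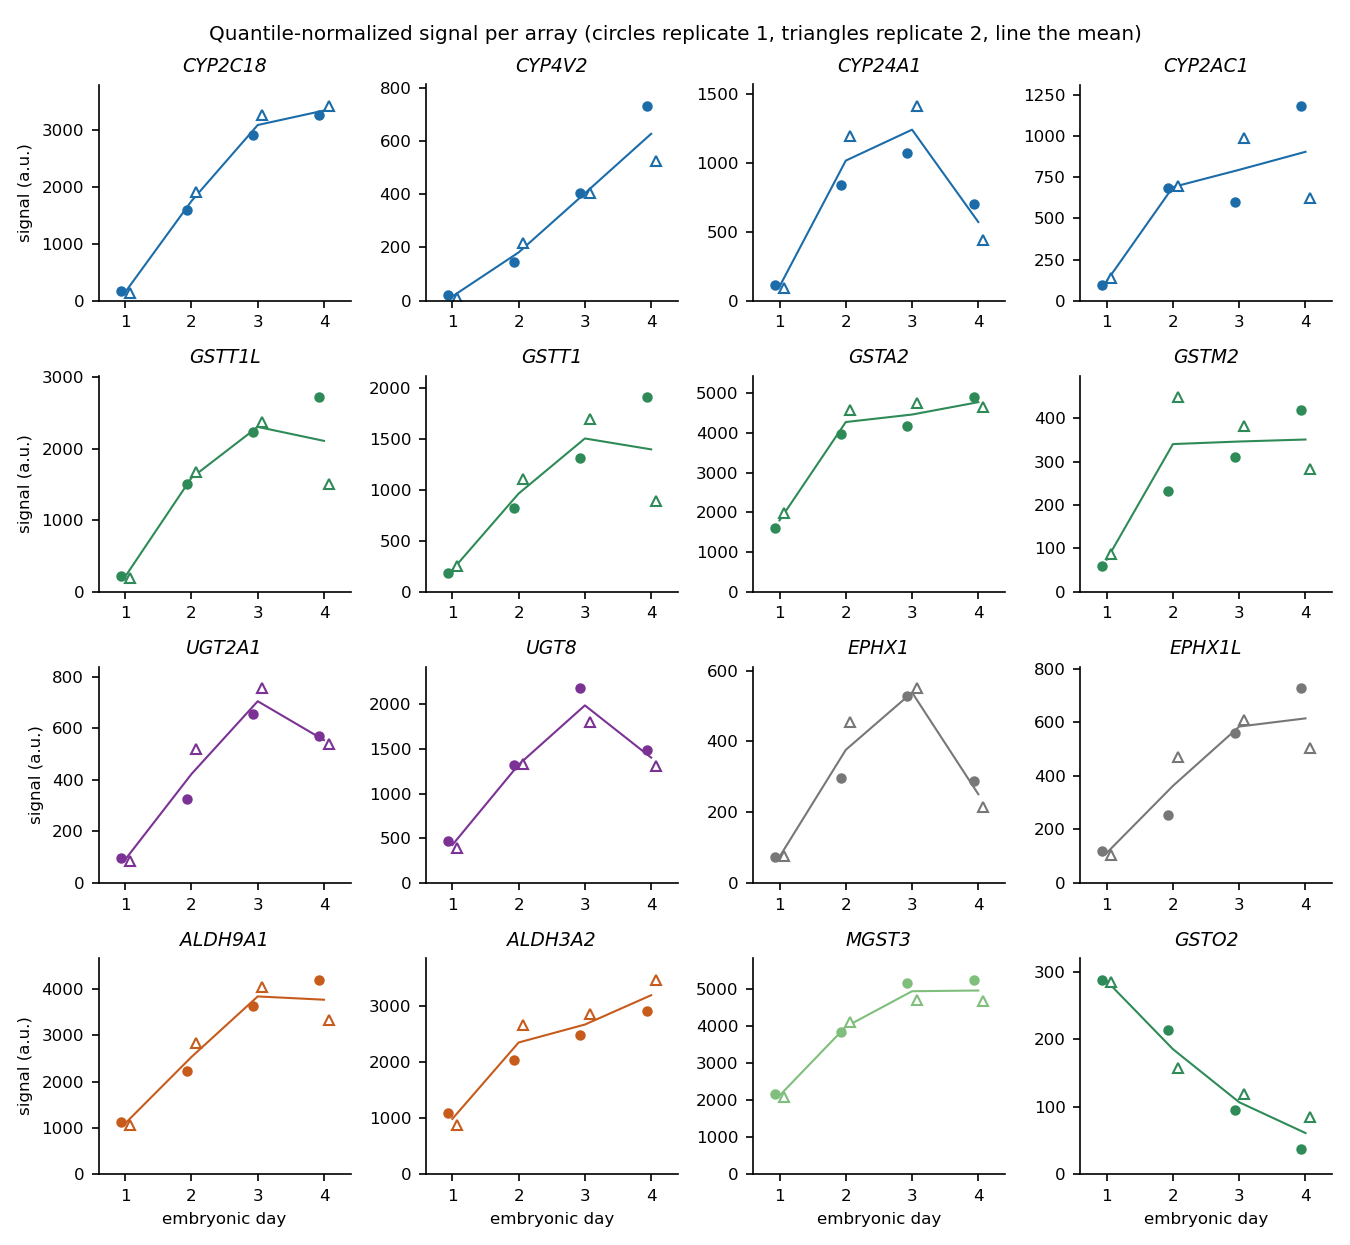
Quantile-normalized signal in arbitrary units (vertical axis, from 0) against embryonic day for 16 of the enzyme genes, with replicate 1 as circles, replicate 2 as open triangles and a line through the daily means. In the 15 genes that rose, both day 1 points lie under every later point; GSTO2 runs the other way, from 289 and 285 on day 1 to 36.6 and 85.3 on day 4.

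The glutathione transferases included rises in the alpha, kappa, mu, theta and zeta classes. GSTT1L and GSTT1, neighbours of the theta class, showed the largest. GSTT1L had signals of 226 and 197 on day 1, 1510.2 and 1677 a day later, 2235 and 2381 by day 3 and 2722 and 1502 by day 4, low on day 1 and without overlap with any later array. It rose 8.97-fold (log2 3.17 ± 0.26, adjusted p = 0.00025). GSTT1 had 179 and 249 on day 1, 821 and 1102 a day later, 1306 and 1696 by day 3 and 1904 and 884 by day 4, with the same low day 1 and with day 4 arrays far apart, and rose 5.79-fold (log2 2.53 ± 0.35, adjusted p = 0.0025). Another probe set of each gave log2 changes of 2.98 and 2.06 (adjusted p = 0.00046 and 0.0081), while another, dimmer one of GSTT1L gave 0.48 (adjusted p = 0.4). The GSTT1L probe set with 2.98 is of the kind that can bind transcripts of related genes. Signal between the pair may thus be shared.

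GSTM2, the mu-class member, read 60.1 and 88.1 on day 1, 233 and 449 a day later, 311 and 382 by day 3 and 419.9 and 283 by day 4. Every array after day 1 was above both of day 1, with overlap among days 2, 3 and 4, and the gene rose 4.05-fold (log2 2.02 ± 0.35, adjusted p = 0.0057). GSTK1, the kappa enzyme of mitochondria and peroxisomes, had 863 and 947 on day 1 and 2365 and 2402 on day 4. It rose 2.61-fold (log2 1.38 ± 0.22, adjusted p = 0.0044), a call lost on the deposited scale (adjusted p = 0.058). GSTZ1, which also acts in tyrosine breakdown, had 229 and 172 on day 1 and 919 and 394 on day 4, its day 4 arrays being far apart. Its rise (log2 1.53 ± 0.46, adjusted p = 0.045) held under 9 of 20 alternatives (adjusted p up to 0.25), and was lost among others on the deposited scale and without either array of day 1, the second of day 3 or the first of day 4.

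The alpha class split. GSTA2 had signals of 1605 and 1985 on day 1, 3958 and 4583 a day later, 4180.4 and 4737 by day 3 and 4893 and 4647 by day 4, with day 1 well below the other 6 arrays, which overlapped. It rose 2.66-fold (log2 1.41 ± 0.15, adjusted p = 0.00089), most of it by day 2 (log2 1.25 ± 0.15, adjusted p = 0.003). GSTA3, with 2 genes between the pair, read 1314 and 1721 on day 1, 3880.4 and 3718 a day later, 1613 and 2213 by day 3 and 3134 and 1338 by day 4. Day 2 was high on both arrays, days 1 and 3 overlapped, and the day 4 arrays enclosed the day 3 pair. No comparison of this gene was called, the nearest being day 2 against day 1 (log2 1.33 ± 0.35, adjusted p = 0.064). GSTA4, next to GSTA3 and in mammals the class member for lipid peroxidation aldehydes, read 53.7 and 39.5 on day 1, 74.3 and 51.6 a day later, 36.4 and 19.1 by day 3 and 18.3 and 11.9 by day 4, and its day 4 arrays were below those of days 1, 2 and 3. It fell between day 1 and day 4 (log2 -1.01 ± 0.29, adjusted p = 0.039), though not without any single array of day 1 or day 4 (adjusted p up to 0.18). The GSTA2 and GSTA3 probe sets are of the kind that can bind transcripts of related genes, so signal between these class members may be shared.

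GSTO2, of the omega class, which in mammals reduces dehydroascorbate, had signals of 289 and 285 on day 1, 214 and 157 a day later, 94.8 and 118 by day 3 and 36.6 and 85.3 by day 4. The day 1 arrays were the highest, days 2 and 3 stepped down without overlap, and both day 4 arrays lay under day 3. The fall was 4.15-fold (log2 -2.05 ± 0.33, adjusted p = 0.0044) and was the only one of the 6 called under all 20 alternatives. Another probe set gave -1.99 (adjusted p = 0.0041).

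Of the membrane-bound transferases, MGST3, a glutathione peroxidase and transferase of lipids, had signals of 2166 and 2074 on day 1, 3842 and 4119 a day later, 5170.0 and 4708 by day 3 and 5253 and 4664 by day 4. Day 1 and day 2 were each separate from later days, and the gene rose 2.33-fold (log2 1.22 ± 0.13, adjusted p = 0.0008). ALDH9A1 lies beside it in the genome and is given with the other ALDH genes. MGST2, which in mammals can make leukotriene C4, read 44.7 and 37.2 on day 1, 88.1 and 168 a day later, 155 and 335 by day 3 and 149 and 335 by day 4, with the second array the higher on each of days 2 to 4. It rose 4.23-fold (log2 2.08 ± 0.46, adjusted p = 0.015), but not without either array of day 1 or the second of day 4 (adjusted p up to 0.1). MGST1 was bright from the start, with 2874 and 3661 on day 1, 2954 and 4096 a day later, 3697 and 2888 by day 3 and 3099.9 and 3958 by day 4, and every later day overlapped day 1 (log2 0.11 ± 0.22, adjusted p = 0.75; 95% interval -0.39 to 0.61).

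Of the UGT genes, UGT2A1 had signals of 96.7 and 84.7 on day 1, 325 and 521 a day later, 656 and 755 by day 3 and 571 and 538 by day 4. Day 1 was below all other arrays and day 3 was the highest. The gene rose 5.35-fold by day 4 (log2 2.42 ± 0.26, adjusted p = 0.00082), and another probe set had the same sign (log2 1.45, adjusted p = 0.0057). UGT8, which in mammals adds galactose to ceramide, read 464 and 386 on day 1, 1316 and 1334 a day later, 2179 and 1799 by day 3 and 1493 and 1314 by day 4. It followed the same order, low on day 1 and highest on day 3, and rose 3.22-fold (log2 1.69 ± 0.18, adjusted p = 0.00089). UGT1A1, the bilirubin-conjugating enzyme in mammals, had 2438 and 2308 on day 1, 3379 and 4979 a day later, 5202 and 4564 by day 3 and 3552 and 3766 by day 4, with both day 1 arrays below the rest. Its rise was the smallest of the 29 (log2 0.62 ± 0.18, adjusted p = 0.042) and held under 8 of 20 alternatives, being lost on the deposited scale and without any single array of days 1, 3 and 4 (adjusted p up to 0.4). Another probe set of it was called higher (log2 1.20, adjusted p = 0.018), and a dimmer one had the opposite sign (-0.44, adjusted p = 0.43). UGT8L stayed under 20 on all arrays but the first of day 3, at 30.7 (adjusted p = 0.47).

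The aldehyde dehydrogenases outside the retinoid group rose in 6 of 10 genes tested and fell in 1. ALDH9A1, which makes a precursor of carnitine, had signals of 1124 and 1067 on day 1, 2222 and 2841 a day later, 3629.8 and 4051 by day 3 and 4204 and 3335 by day 4. Day 1 was far below day 2 and day 2 below days 3 and 4, which overlapped. It rose 3.38-fold (log2 1.76 ± 0.18, adjusted p = 0.00064), and its other 2 probe sets gave 1.78 and 1.72 (adjusted p = 0.0085 and 0.0016). ALDH3A2, the fatty aldehyde dehydrogenase, read 1088 and 878 on day 1, 2039 and 2647 a day later, 2473 and 2853 by day 3 and 2907 and 3463 by day 4, with day 1 apart from all later arrays, and rose 3.21-fold (log2 1.68 ± 0.19, adjusted p = 0.0011).

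ALDH2, the mitochondrial enzyme known for acetaldehyde, had 1714 and 1597 on day 1, 3071 and 4327 a day later, 4564 and 5334 by day 3 and 3888 and 3831 by day 4. Its highest arrays were those of day 3 and its lowest those of day 1. By day 4 it had risen 2.32-fold (log2 1.21 ± 0.18, adjusted p = 0.003). ALDH6A1, of valine breakdown, read 309 and 391 on day 1, 666 and 686 a day later, 1269 and 1522 by day 3 and 1028 and 947 by day 4, also with day 3 on top. It rose 2.76-fold (log2 1.46 ± 0.20, adjusted p = 0.0021), a call not made on the deposited scale (adjusted p = 0.13). Smaller rises were those of ALDH5A1, the succinic semialdehyde dehydrogenase (log2 0.91 ± 0.24, adjusted p = 0.028), and of ALDH3B2 (log2 0.84 ± 0.22, adjusted p = 0.028). Each was lost under 6 alternatives, including the deposited scale and leaving out either array of day 1 or the first of day 4, with adjusted p up to 0.74 for ALDH5A1 and 0.46 for ALDH3B2.

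ALDH1L2, a mitochondrial folate enzyme whose probe set was only just above the filter, read 18.2 and 27.0 on day 1, 6.69 and 2.14 a day later, 0.928 and 0.821 by day 3 and 0.628 and 4.55 by day 4. It was above 18 on both day 1 arrays and under 7 on the other 6. Since day 1 alone took it past the filter, day 1 had to be high for it to be tested at all, and its call as lower on day 4 is given as a description (log2 -1.05 ± 0.23, adjusted p = 0.015). That call was lost with 1 in place of 16 added before the logarithm and without the second array of day 1 or the first of day 4 (adjusted p up to 0.11). ALDH7A1 of lysine breakdown had 863 and 1017 on day 1 and 1735 and 1043 on day 4 (adjusted p = 0.21). ALDH4A1 of proline breakdown had 234 and 211 and 212 and 80.3 (adjusted p = 0.22; on the deposited scale log2 -1.49, adjusted p = 0.018). ALDH18A1 of proline synthesis ranged from 204 to 292 over all arrays, with a log2 change of -0.09 and a 95% interval of -0.63 to 0.45.

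The enzymes of retinoid metabolism did not move as a block. Alcohol dehydrogenases can oxidize retinol to retinal, ALDH1A enzymes turn retinal into retinoic acid, and CYP26 enzymes clear retinoic acid. ADH1C had signals of 33.9 and 28.7 on day 1, 48.2 and 1029 a day later, 717 and 741 by day 3 and 1832 and 1372 by day 4. It was dim on day 1 and bright on days 3 and 4, while the day 2 arrays fell on either side, the first near day 1 and the second between days 3 and 4. The rise to day 4 was 33.9-fold, the largest of the 29 and the one with the widest interval, 2.83 to 7.34 (log2 5.08 ± 0.99, adjusted p = 0.0089). It was lost without either array of day 1 or the first of day 4 (adjusted p up to 0.071). Neither of its other tested probe sets was called; one, at 10.5 to 46.5, gave a log2 change of 0.92 (adjusted p = 0.075) and the other 0.41 (adjusted p = 0.38). ADH4, which RefSeq also lists as ADH5, had 1322 and 1882 on day 1, 1152 and 2133 a day later, 1506 and 1764 by day 3 and 2116 and 2666 by day 4, with day 4 above day 1 but days 1 to 3 overlapping (log2 0.59 ± 0.30, adjusted p = 0.19).

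ALDH1A2, the main retinoic acid synthase of the early embryo, had the largest of the 6 falls. Its signals were 256 and 776 on day 1, 11.4 and 49.2 a day later, 15.1 and 12.5 by day 3 and 32.1 and 77.1 by day 4. Day 1 was high on both arrays, though much higher on the second, and every later array was below 80. It fell 11.0-fold by day 2 (log2 -3.46 ± 0.57, adjusted p = 0.011) and remained below day 1 on day 4 (log2 -2.79 ± 0.57, adjusted p = 0.011). Without the second array of day 1 neither fall was called (adjusted p up to 0.1 and 0.082). The day 4 fall was also lost without the first array of day 4. Another probe set gave -3.13 (adjusted p = 0.00088). That probe set passed the filter only through day 1, at a deposited 132.5 and 447.9 beside at most 7.08 on every later array. Its fall is given as a description. The gene is expressed by embryonic mesoderm in the chick. Of the 15 mesoderm markers tested, TBXT, TNNT2, MYL3 and ACTC1 also fell between day 1 and day 4 and 0 rose. ALDH1A2 had its lowest value, 11.4, on the first array of day 2. There TBXT, TNNT2, MYL3 and ACTC1 were also low, at 5.10, 14.3, 8.89 and 25.0. The summed signal of the 16 was nevertheless highest on that array, at 13397, with COL3A1 at 4647, COL1A1 at 2722, COL1A2 at 2669 and VIM at 1702. The part of mesoderm in the fall was not tested.

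ALDH1A1 read 549 and 1033 on day 1, 92.2 and 775 a day later, 287 and 223 by day 3 and 153 and 508 by day 4, with day 1 above days 3 and 4 and day 2 on either side (log2 -1.37 ± 0.85, adjusted p = 0.28). ALDH1A3 read 481 and 409 on day 1, 191 and 1139 a day later, 209.6 and 242 by day 3 and 424 and 995 by day 4, high on 1 array each of days 2 and 4 (log2 0.54 ± 0.69, adjusted p = 0.61). ALDH8A1, once named a retinal dehydrogenase and now placed in tryptophan breakdown, stayed between 9.54 and 25.0 (adjusted p = 0.64). None of these was called in any comparison.

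CYP26A1 had signals of 164 and 213 on day 1, 210.4 and 457 a day later, 389.8 and 337 by day 3 and 222 and 317 by day 4. The first array of day 2 lay inside the day 1 range and every other later array above it. No comparison was called (for day 4 against day 1, log2 0.47 ± 0.36, adjusted p = 0.37). CYP26B1 read 48.8 and 52.2 on day 1, 27.5 and 18.2 a day later, 11.5 and 5.33 by day 3 and 25.5 and 11.5 by day 4, with day 1 above the other 6 arrays, and it fell by day 4 (log2 -0.98 ± 0.28, adjusted p = 0.037). The call was lost with 1 in place of 16 added, without the filter, and without either array of day 1 or the second of day 4 (adjusted p up to 0.16). CYP26C1, next to CYP26A1, was at 11.8 and 56.8 on day 1 and at 2.36 to 16.1 on the other days (adjusted p = 0.21). CYP27C1, which desaturates retinol in fish and humans, stayed between 8.45 and 19.8 on all arrays (log2 -0.17 ± 0.22, adjusted p = 0.6). A dimmer probe set of it was called lower on day 4 (log2 -0.98, adjusted p = 0.049). That probe set passed the filter only through the second array of day 1, at a deposited 54.5 beside at most 7.73 on every other array. Its call is given as a description. CYP1B1, which in mammals can also make retinal, did not pass the filter and reached 17.6.

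**Figure D3:**
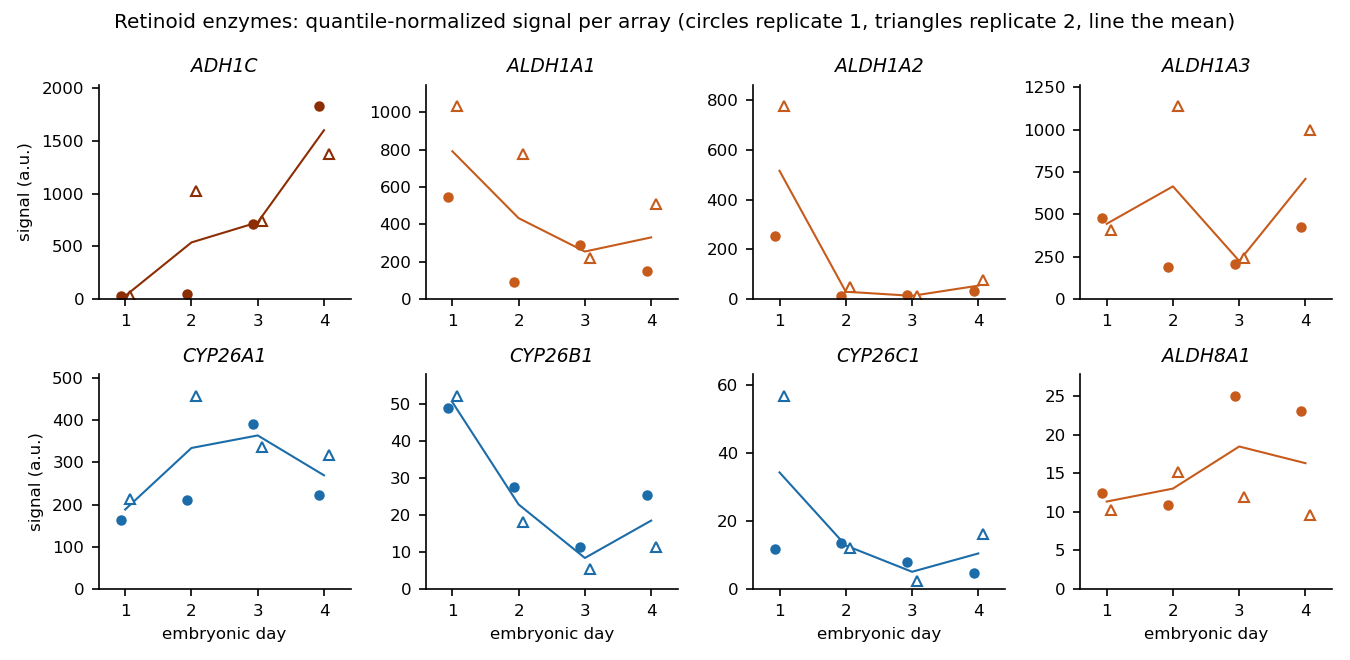
Quantile-normalized signal in arbitrary units (vertical axis, from 0, a separate scale per gene) against embryonic day for 8 enzymes of retinoid metabolism, with replicate 1 as circles, replicate 2 as open triangles and a line through the daily means. ADH1C climbs to 1832 and 1372 on day 4, ALDH1A2 drops below 80 after day 1, and on day 2 the triangle of ADH1C, ALDH1A1, ALDH1A3 and CYP26A1 lies far above the circle.

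Of the day-to-day comparisons over all 8 arrays, only that of day 2 with day 1 had calls. There, 21 of the 62 were higher and 1, ALDH1A2, was lower, beside 5.22% higher and 2.98% lower among all genes tested. On the deposited scale the counts were 10 and 2, beside 2.37% and 4.59%. The 10 shared rises were those of CYP24A1, CYP2AC1, CYP2C18, CYP4B7, CYP4V2, EPHX1, GSTT1, GSTT1L, UGT2A1 and UGT8, and the fall added on the deposited scale was that of ALDH1L2. The log2 changes by day 2 were 3.44 for CYP2C18, 2.82 for GSTT1L and 2.63 for CYP4V2 (adjusted p = 7.7e-05, 0.001 and 0.0016). CYP2AC1, GSTT1 and UGT2A1 had 2.42, 2.09 and 2.00 (adjusted p = 0.0064, 0.012 and 0.0038), and UGT8 and CYP4B7 had 1.61 and 1.76 (adjusted p = 0.0022 and 0.016). In all 29 genes that were higher on day 4, both arrays of day 2 already lay above both of day 1. The 29 were picked against the same day 1 arrays, so this too is a description and not separate support for an early rise. Without either day 1 array the number of rises by day 2 was 10 (first array left out) or 8 (second).

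Between days 2 and 3 and between days 3 and 4, limma called 0 of the 62, as it called 0% of all genes. At an unadjusted p under 0.05, 13 of the 62 lay higher and 3 lower on day 3 compared with day 2, or 21.0% and 4.84% beside 6.55% and 8.71% of all genes. For day 4 compared with day 3 it was 0 higher and 8 lower, or 12.9% lower beside 2.75% higher and 3.71% lower among all genes. On the deposited scale these counts were 7 higher and 2 lower for day 3 against day 2. For day 4 against day 3 they were 1 higher and 9 lower there. The matching shares of all genes on that scale were not counted. The smallest of these p-values for day 3 against day 2 belonged to CYP2C23a (log2 1.45 ± 0.25, adjusted p = 0.25) and ALDH6A1 (log2 1.02 ± 0.20, adjusted p = 0.27), and for day 4 against day 3 to CYP4A22 (log2 -1.52 ± 0.33, adjusted p = 0.46), EPHX1 (log2 -1.07 ± 0.26, adjusted p = 0.54) and CYP24A1 (log2 -1.12 ± 0.29, adjusted p = 0.54). Over the 4 days together, the F-test called 36 of the 62, beside 22.9% of all genes. The daily mean was highest on day 1 in 10 of the 62, on day 2 in 4, on day 3 in 28 and on day 4 in 20, or 16.1%, 6.45%, 45.2% and 32.3%. Among all genes the shares were 41.1%, 12.9%, 23.5% and 22.5%. Of the 29 genes that rose, 16 had their highest mean on day 3, 12 on day 4 and 1, CYP4B7, on day 2. Days 2 and 3, and days 3 and 4, were not told apart by the tests.

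The share of these enzymes with arrays far apart was largest on day 4. There, 12 of the 62 were more than 1 log2 unit apart, which is 19.4% beside 6.94% of all genes. On days 1, 2 and 3 it was 3, 8 and 4, or 4.84%, 12.9% and 6.45%, beside 1.59%, 8.47% and 4.36%. On day 4 the first array was the higher one for ALDH4A1, CYP17A1, CYP1A2, CYP2D6, CYP3A5, CYP4A22, GSTA3, GSTT1 and GSTZ1, and the second for ALDH1A1, ALDH1A3 and MGST2. On day 2 the second array was the higher one for ADH1C, ALDH1A1, ALDH1A2, ALDH1A3, CYP26A1 and CYP46A1, and the first for CYP2C23b and CYP2R1. Over all genes on day 2, 604 were higher on the first array and 290 on the second. The 8 enzyme genes with such gaps were more often higher on the second array, but they are few, and their direction is a description. The first array of day 2 was the one with 13397 against 633 in summed mesoderm markers and 3577 against 211 in summed endothelial markers. Its beta-actin 3' to 5' ratio was 1.74 against 3.77, and that of GAPDH 1.08 against 1.18. The part of any of these in the gaps was not tested. With the first arrays of days 2 and 3 both left out, 31 of the 62 were called higher and 6 lower for day 4 against day 1. That comparison draws on the arrays left out only through the normalization and the shared spread. Its counts therefore do not bear on the gaps of days 2 and 3.

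**Figure D4:**
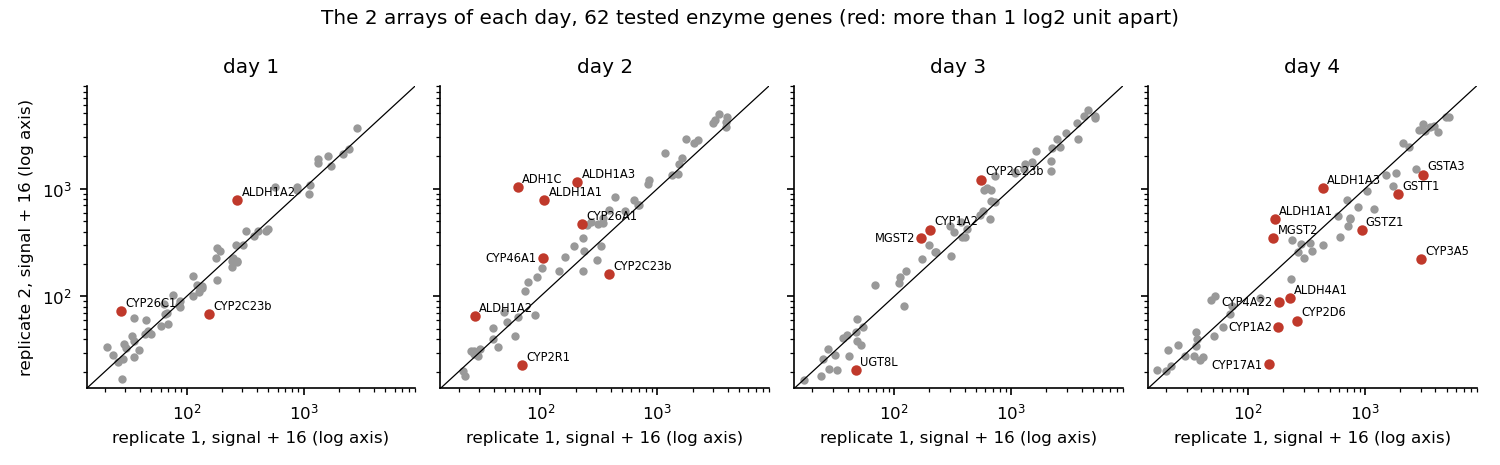
Signal + 16 of the 62 tested enzyme genes on the first array (horizontal, log axis) against the second array (vertical, log axis) of each day, 1 panel per day, with the diagonal as a line. Named red points, more than 1 log2 unit apart, number 3, 8, 4 and 12 on days 1 to 4; CYP3A5 on day 4, at 2995 and 207, lies farthest below the line.

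The 17 genes that did not pass the filter were 15 P450s, ALDH3B1 and EPHX3, with no signal above 23.1 on any array, the highest being that of EPHX3. They included CYP2AB1, CYP2AB2, CYP2AB3, CYP2AB4 and CYP2AB5, a run of adjacent genes that reached 6.77 to 17.7, and CYP2J19, the enzyme of red carotenoid pigments in birds, at 2.51 to 10.8. Just outside the filter was CYP2U1 with a mean deposited signal of 8.61 and just inside ALDH1L2 with 10.4. Among genes called between day 4 and day 1, 15 had 20 further probe sets that were tested, and 19 of the 20 had the same sign, 15 of them called themselves. The 5 not called belonged to ADH1C (2), ALDH5A1, GSTT1L and UGT1A1, the last with the opposite sign. Probe sets too dim for the filter are not among the 20. The further probe sets of ALDH1A2 and CYP4V2 passed it only through the day on which they were high. The agreement is therefore partly built in, and the counts are a description.

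Adjacent genes did not always move alike. GSTT1L and GSTT1 rose together (log2 3.17 and 2.53), as did MGST3 and ALDH9A1 (1.22 and 1.76). Signal between GSTT1L and GSTT1 may be shared on the array. Next to each other, GSTA4 fell (-1.01) and GSTA3 had 0.44, not called; CYP4B7 rose (1.12) and CYP4A22 had -0.02, not called. Differences between neighbours were not tested.

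Genes that serve these enzymes were read from 5 lists, whose counts stand beside 13.0% higher and 16.4% lower among all genes. Each list also held genes that could not be read or were not tested, and these are not in the counts. The genes of these lists were not run under the alternatives, the deposited scale among them. How far their calls depend on the processing is therefore not known. Of 14 tested electron donors and cofactors of the P450s, 3 (21.4%) rose between day 1 and day 4 and 0 fell. PGRMC1, a haem-binding partner of P450s, rose from 2593 and 2297 to 4879.8 and 4846 (log2 0.99 ± 0.15, adjusted p = 0.0038); CYB5B (0.82, adjusted p = 0.014) and ferredoxin, FDX1 (0.87, adjusted p = 0.03), were the other two. POR, the reductase of all microsomal P450s, had 252 and 143 on day 1 and 414 and 233 on day 4 and was not called (log2 0.66 ± 0.37, adjusted p = 0.22). HMOX2, next by p, had a log2 change of 1.05 (adjusted p = 0.052).

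Among 15 receptors and factors that regulate such enzymes, 9 (60%) were higher and 0 lower. A further 5 of the 20 listed, AHR, AHRR, NR1I2, RXRB and RARG, had no probe set with a single symbol and could not be read. HNF4A, which was called, and FOXA2, which was not, also stand among the 11 endoderm markers. CEBPB rose from 797 and 714 to 1942 and 2417 (log2 1.50 ± 0.21, adjusted p = 0.0027) and RXRG, a retinoid X receptor, from 73.3 and 58.6 to 355 and 301 (log2 2.07 ± 0.30, adjusted p = 0.0028). PPARA, the fatty acid receptor, rose by 1.53 (adjusted p = 0.014) and NR1H3, an oxysterol receptor, by 0.84 (adjusted p = 0.019). VDR, the vitamin D receptor that induces CYP24A1 in mammals and birds, was called on day 2 against day 1 (log2 1.23 ± 0.29, adjusted p = 0.046) but not on day 4 (log2 0.31 ± 0.29, adjusted p = 0.48). Its signals were 94.2 and 59.9 on day 1 and 159 and 245 a day later. By day 3 they were 202 and 232, and by day 4 108 and 87.1. A bearing of VDR on the level of CYP24A1 was not tested.

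Of 15 genes of glutathione supply and the NRF2 response, 3 were higher and 2 lower, or 20.0% and 13.3%, which is near the shares among all genes. ABCG2, an export pump, rose from 306 and 251 to 952 and 689 (log2 1.49 ± 0.24, adjusted p = 0.0046), and NFE2L2, which encodes NRF2, by 0.76 (adjusted p = 0.033). PRDX1, a peroxiredoxin, fell from 5919.6 and 6328 to 1882 and 2704 (log2 -1.43 ± 0.24, adjusted p = 0.0053), and so did ABCC1, which exports glutathione conjugates (log2 change -2.26, adjusted p = 0.042). GCLC and GCLM, the subunits of the enzyme that limits glutathione synthesis, were at -0.58 and -0.39 and were not called (adjusted p = 0.096 and 0.34).

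Of 9 retinoid handling genes, 3 were higher and 1 lower, or 33.3% and 11.1%. RBP5, a cellular retinol-binding protein, rose from 462 and 501 to 2335 and 1541 (log2 1.94 ± 0.22, adjusted p = 0.00096). STRA6, a receptor for retinol-binding protein, and DHRS3, which reduces retinal, rose by 1.99 and 1.08 (adjusted p = 0.013 and 0.021). CRABP1, which binds retinoic acid in the cell, fell from 245 and 339.7 to 56.2 and 88.4 (log2 -1.81 ± 0.34, adjusted p = 0.0076).

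Among 11 other conjugating and oxidizing enzymes, 4 were higher and 1 lower, or 36.4% and 9.09%. SULT1B1, a sulfotransferase, rose from 38.1 and 24.8 to 384 and 381 (log2 3.08 ± 0.36, adjusted p = 0.0012), and the oestrogen sulfotransferase SULT1E1 from 326 and 539 to 2748 and 1791 (log2 2.36 ± 0.31, adjusted p = 0.0019). Xanthine dehydrogenase, XDH, rose by 2.31 and the flavin monooxygenase FMO4 by 2.27 (adjusted p = 0.00096 and 0.0016). The gene that fell was AKR1B1, aldose reductase (log2 -2.04 ± 0.60, adjusted p = 0.041).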

How the data were processed

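Signals from 8 Affymetrix Chicken Genome Arrays were used as deposited by the authors: linear intensity values in arbitrary units, made with MAS5 per the submitters' processing notes, with version and target not given in the sources used here. Per the labels' protocols, 5 µg of RNA per array was labelled in a single cycle. Detection calls were not used. The 96 controls among 38535 probe sets were left out. The remaining 38439 comprised 27168 with 1 symbol, 177 several (6 of them matching the rule and not named here) and 11094 none in GEO's platform annotation, and all 79 symbols stand in RefSeq, which gave other names and neighbours.

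The deposited columns were not on a common level, so signals were quantile normalized over the 38439 probe sets and taken as log2(signal + 16); printed signals are the normalized values. Probe sets with a mean deposited signal above the 40th percentile (9.96) were tested, 23063 in all, with limma 3.58.1 in R 4.3.3 (lmFit, eBayes with a trend, 4 residual and 4.66 prior degrees of freedom), all 8 arrays and 4 days in 1 fit, Benjamini-Hochberg adjustment and a threshold of 0.05. With 2 arrays per day precision is limited. The code was tested on simulated data. Plots used matplotlib 3.10.9 (Python 3.11.15).

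Members, role groups and partner lists were chosen with earlier results of these data known. All members could be named; from each partner list up to 4 genes with the smallest adjusted p between day 4 and day 1. POR, VDR, GCLC, GCLM, AKR1B1 and the mesoderm markers were named after their values were seen. Alternatives were the deposited scale, a shift to the same median, 1 or 64 added, no filter or a 60th percentile filter, no trend, array weights, a replicate block, the mean of a gene's probe sets, only the 2 days compared and each array left out; leaving out the first arrays of days 2 and 3 together was added after the data were seen.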

Additional observations from a re-analysis of the deposited data

How the results depend on the processing

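Single genes were followed under the alternatives for the enzyme genes only, not for the partner lists or the cell type markers. Over the alternatives tried, no called enzyme gene changed sign. Of the 29 rises and 6 falls between day 1 and day 4, 16 and 1 were called under every alternative that tested them (among the rises CYP2C18, CYP4V2, GSTT1L, CYP24A1, UGT2A1 and ALDH9A1; the fall was that of GSTO2), and of the 21 rises and 1 fall by day 2, 6 and 0 were. The deposited scale gave 18 rises by day 4, and 10 rises and 2 falls by day 2. A shift to the same median and 64 added before the logarithm each gave 2 falls by day 2, and 1 added gave 3 falls by day 4. With each array left out in turn, the rises by day 4 numbered 19 to 31 and the falls 1 to 6, in both cases fewest without the second array of day 1. The rises by day 2 numbered 8 to 22 and the falls 0 to 1, the rises of day 3 over day 2 0 to 1 (1 without the second array of day 2), and the F-test calls 12 to 40, with 15 without the first and 12 without the second array of day 1 and 23 without the second of day 3. These days then rest on 1 array, assumed to vary like the others. The replicate numbers did not pair the arrays: the deviations of same-numbered arrays of 2 days correlated at -0.114 to 0.38, and the pair of days 2 and 3 stood apart from the rest. With the replicate number as a block there were 27 rises and 5 falls by day 4, 20 and 1 by day 2, and 34 F-test calls. Without a filter 24 and 4 of the 79 were called between day 1 and day 4. The causes of these shifts were not tested. Signals near the filter have little depth over background, and 2 pooled samples per day limit all tests.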
